A study of Homo sapiens with 6 samples.

Results

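Protein phosphatase 2A (PP2A) is a serine/threonine phosphatase assembled from a catalytic C subunit, a scaffold A subunit and 1 regulatory B subunit. The B subunit binds the substrate and so sets which proteins the enzyme dephosphorylates. B56 subunits, encoded by the PPP2R5 genes, are known for acting on mitotic, Wnt and growth factor signalling proteins, and PP2A is regarded as a tumor suppressor in epithelial cells. The 10 subunit genes described here were the catalytic genes PPP2CA and PPP2CB, the scaffold genes PPP2R1A and PPP2R1B, the B55 gene PPP2R2A and the B56 genes PPP2R5A, PPP2R5B, PPP2R5C, PPP2R5D and PPP2R5E. They were chosen by symbol around PPP2R5A, whose lower FPKM in shZNF148 than in shCtr was already known, so their shifts between the groups are given as a description. Calls from a fit to all genes are counted for them beside the background and support nothing. The symbols matched 11 of the 24108 rows of the deposited table, because PPP2CA had 2 rows, and all 11 had a mean of at least 1 FPKM, a unit that divides fragments by transcript length and by sequencing depth.

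The cells were MDA-MB-231, an established basal triple-negative breast cancer line, and their total RNA was sequenced. The 3 shCtr samples carried a lentiviral hairpin against luciferase and the 3 shZNF148 samples the 1 hairpin against ZNF148, a Krüppel-like zinc finger transcription factor. Both groups were transduced for 48 h and selected for 24 h in 0.5 µg/ml puromycin, and since 1 hairpin was used, a response to this hairpin apart from ZNF148 loss cannot be told apart from a response to ZNF148. No source says that the replicates were separate cultures, and the spread between them may be technical.

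ZNF148 itself was 3.72, 4.36 and 4.3 FPKM in shCtr replicates 1, 2 and 3 and 0.914, 0.282 and 0.834 FPKM in shZNF148 replicates 1, 2 and 3. The summed FPKM ranged from 469594 to 507312. Read numbers are unknown, and the steps between low values put the depth of the samples between 0.806 (shZNF148 replicate 3) and 1.13 of that of shCtr replicate 1. All 5 markers of mesenchymal-like basal breast cancer cells were expressed (VIM, CD44, EGFR, AXL and CAV1), with a summed level of 2960 to 3080 FPKM in shCtr and 2460 to 2540 FPKM in shZNF148. Of 4 luminal markers, ESR1 was listed at 0 in every sample, PGR and FOXA1 stayed below 1 FPKM and GATA3 reached 9.24 FPKM, with a summed level of 7.55 to 8.66 FPKM in shCtr and 8.21 to 9.36 FPKM in shZNF148. None of the 3 leukocyte or 2 endothelial markers exceeded 0.131 FPKM. The part of these differences in the results below was not tested.

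For the 3 subunit genes whose groups did not overlap, DNA before 1 annotated transcript start each is shown. Sequences are from RefSeq on GRCh38.p14, where 8 of the 10 genes had 14 windows in all, and cover the 250 bases before an annotated start. PPP2R5A lies on chromosome 1 from 212285410 to 212361853 on the plus strand, and the window shown, 1 of 2, is chr1:212285160-212285409. PPP2R5C lies on chromosome 14 from 101761709 to 101927989 on the plus strand, and the window shown, 1 of 3, is chr14:101762120-101762369, which lies inside that span before a later transcript start. For PPP2R5A and PPP2R5C the window that holds the word marked below was the one picked, and their other windows do not hold it. PPP2R1B lies on the minus strand of chromosome 11 (111726908 to 111766389), and its window is chr11:111766390-111766639, read on the minus strand. Each is written from 5′ to 3′, and capitals mark the word CCCTCCCC or its reverse complement GGGGAGGG, a short C-rich or G-rich word of the kind that ZNF148 is known to bind.
PPP2R5A: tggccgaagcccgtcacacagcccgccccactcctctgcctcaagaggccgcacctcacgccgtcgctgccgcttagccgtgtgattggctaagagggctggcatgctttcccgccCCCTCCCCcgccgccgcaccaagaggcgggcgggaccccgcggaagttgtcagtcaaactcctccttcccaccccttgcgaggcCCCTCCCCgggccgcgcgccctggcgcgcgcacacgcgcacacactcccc
PPP2R5C: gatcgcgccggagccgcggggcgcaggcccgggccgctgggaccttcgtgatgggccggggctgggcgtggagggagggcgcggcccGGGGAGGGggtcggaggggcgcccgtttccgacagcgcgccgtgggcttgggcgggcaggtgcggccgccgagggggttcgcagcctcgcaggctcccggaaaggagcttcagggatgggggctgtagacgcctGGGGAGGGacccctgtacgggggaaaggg
PPP2R1B: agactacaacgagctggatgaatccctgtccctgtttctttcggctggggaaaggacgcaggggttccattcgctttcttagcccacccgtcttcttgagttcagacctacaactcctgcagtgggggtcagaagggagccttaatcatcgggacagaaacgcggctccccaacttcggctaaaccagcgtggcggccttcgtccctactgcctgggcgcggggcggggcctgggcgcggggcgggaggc

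The PPP2R5A window shown held the word 2 times, with first bases at -134 and -50 counted from the start. The PPP2R5C window shown also held it 2 times, at -163 and -29, while the PPP2R1B window did not hold it. Among the 14 windows of subunit genes, 3 held the word, the remaining one being a window of PPP2CA with 1 match. Of all 35116 RefSeq windows of this length, 12.7% held the word at least 1 time and 2.27% at least 2 times. The word was picked after the values were seen, and the PPP2R5A and PPP2R5C windows because they hold it. These shares, which were not matched for GC content, therefore cannot say whether the matches are unusual. These matches describe letters only, since ZNF148 binding was not analysed here. The paper names PPP2R5A among genes at high-scoring sites of tagged ZNF148 in MDA-MB-231 cells. Those sites were not compared with the windows shown. The GC content was 72.0% in the PPP2R5A window shown and 33.2% in its other window, 77.2% in the PPP2R5C window shown and 61.6% and 46.8% in its other windows, and 62.0% in the PPP2R1B window, against a median of 58.0% over all windows.

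In the shCtr cells the subunit genes covered about an order of magnitude in level. PPP2R5D, at 133 ± 4.73 FPKM (SD, n = 3), and the scaffold gene PPP2R1A, at 132 ± 5.17 FPKM (SD, n = 3), were the highest, and their ranges overlapped. The higher row of PPP2CA followed at 106 ± 7.36 FPKM (SD, n = 3). PPP2R5C at 55.2 ± 1.99 FPKM and the other row of PPP2CA at 54.3 ± 1.21 FPKM (SD, n = 3 each) overlapped as well, whereas PPP2CB at 33.5 ± 0.776 FPKM and PPP2R2A at 18.9 ± 0.511 FPKM (SD, n = 3 each) each stood clear of their neighbours. At the bottom, PPP2R5E, PPP2R5A, PPP2R1B and PPP2R5B had means of 13.3, 12.3, 11.9 and 11.4 FPKM, and neighbours in that order could not be separated by their replicates. FPKM is scaled to transcript length, so these levels can be compared between genes, and none of the 11 rows was listed at 0 in any sample.

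PPP2R5A, which encodes the B56 alpha subunit, was lower after ZNF148 knockdown. It was 12.0, 11.7 and 13.3 FPKM in shCtr replicates 1, 2 and 3, and 5.56, 3.51 and 4.62 FPKM in shZNF148 replicates 1, 2 and 3. Every shZNF148 value lay below every shCtr value, and replicate 2 was the lowest for PPP2R5A as it was for ZNF148. That sample was also the lowest of all 6 in 26.3% of all tested rows. The shZNF148 mean was 37.0% of the shCtr mean, and the log2 fold change, taken on log2(FPKM + 1), was -1.28 (standard error 0.14). Ranked by that fold change, PPP2R5A was 117 from the lowest among the 11777 tested rows. In bulk RNA, fewer cells with the transcript and less transcript per cell cannot be told apart.

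The other 4 B56 genes differed less between the groups. PPP2R5B (B56 beta) was 12.2, 11.9 and 10 FPKM in shCtr and 10.8, 10.2 and 9.45 FPKM in shZNF148, so that the groups overlapped, with a log2 fold change of -0.15 (95% interval -0.38 to 0.08). PPP2R5C (B56 gamma), which takes part in chromosome attachment at mitosis, was 56.2, 56.5 and 52.9 FPKM in shCtr and 49.7, 40.7 and 46.5 FPKM in shZNF148. All 3 shZNF148 values of PPP2R5C were below the shCtr values, but the log2 fold change of -0.27 (95% interval -0.48 to -0.07) was smaller than that of PPP2R5A.

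PPP2R5D (B56 delta) was 128, 135 and 137 FPKM in shCtr and 135, 132 and 135 FPKM in shZNF148. PPP2R5E (B56 epsilon) was 13, 12.6 and 14.2 FPKM in shCtr and 13.1, 13.6 and 13.3 FPKM in shZNF148. Their groups overlapped almost entirely, and with log2 fold changes of 0.01 each the intervals ran from -0.12 to 0.14 for PPP2R5D and from -0.16 to 0.18 for PPP2R5E.

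**Figure D1:**
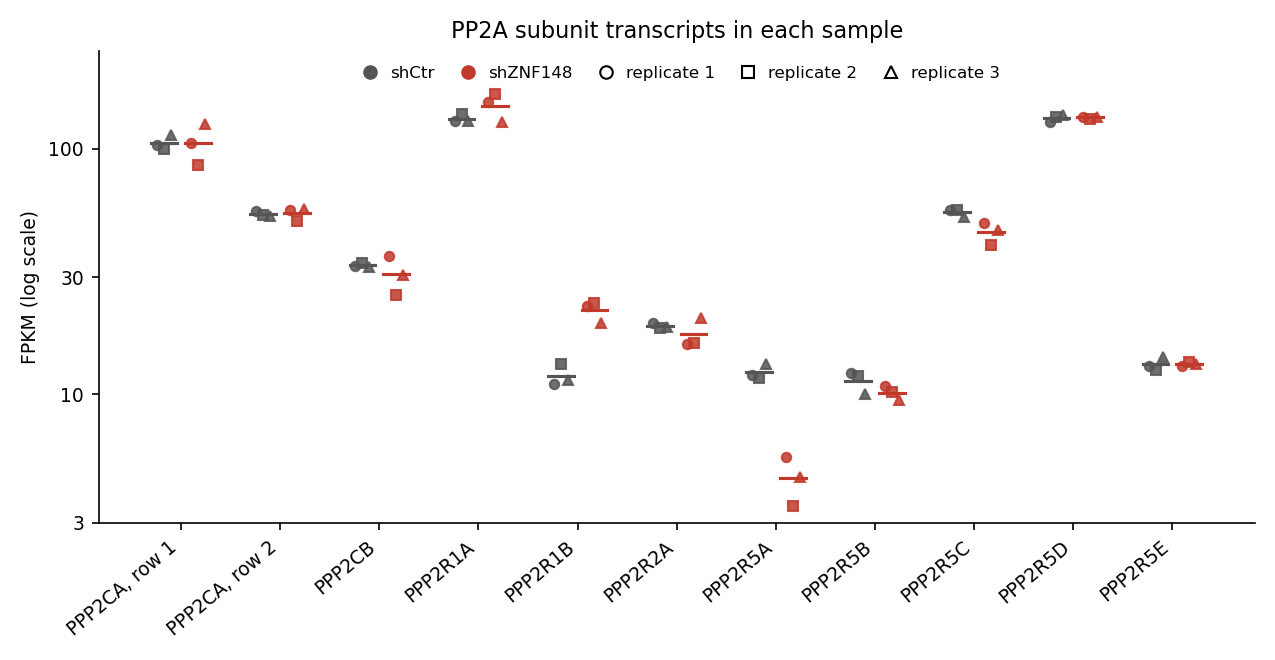
Level of each PP2A subunit row in FPKM (log axis) in the 3 shCtr samples (grey) and the 3 shZNF148 samples (red), where marker shapes give the replicate number and bars the group means. PPP2R5A goes from 12.3 to 4.56 FPKM and PPP2R1B goes from 11.9 to 22.0 FPKM, while the groups of 8 of the 11 rows overlap.

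Because levels in FPKM can be set against each other within a sample, PPP2R5A was also compared with the B56 genes of similar level. The ratio of PPP2R5A to PPP2R5E was 0.923, 0.930 and 0.937 in shCtr, which is nearly constant, and 0.425, 0.258 and 0.346 in shZNF148. The ratio of PPP2R5A to PPP2R5B was 0.979, 0.986 and 1.32 in shCtr and 0.517, 0.344 and 0.489 in shZNF148. Neither ratio overlapped between the groups. A ratio taken within a sample does not depend on how the samples were scaled to each other. Since PPP2R5A was chosen for its fall, these ratios restate that fall and add no support for it.

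PPP2R5A made up a small part of the B56 transcripts even in control cells. Its share of the summed FPKM of the 5 B56 genes was 5.41%, 5.15% and 5.83% in shCtr and 2.59%, 1.75% and 2.21% in shZNF148. PPP2R5D supplied most of the sum, with 59.1% ± 1.23 of it in the shCtr and 64.6% ± 1.49 in the shZNF148 samples (SD, n = 3 each), although its own FPKM was nearly the same in both groups. PPP2R5C supplied 24.5% ± 1.11 in shCtr and 21.9% ± 1.48 in shZNF148 (SD, n = 3 each). The sum over the 5 genes was 222, 228 and 228 FPKM in shCtr and 214, 200 and 209 FPKM in shZNF148, and its groups did not overlap. Besides PPP2R5A (12.3 to 4.56 FPKM), the means of PPP2R5C (55.2 to 45.6 FPKM) and PPP2R5B (11.4 to 10.1 FPKM) were lower in shZNF148. Of all single rows tested, 21.0% did not overlap in the lower direction.

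Among the scaffold genes, PPP2R1B moved in the opposite direction to PPP2R5A. PPP2R1B, which encodes the less abundant beta scaffold, was 11, 13.3 and 11.5 FPKM in shCtr and 22.8, 23.6 and 19.6 FPKM in shZNF148. Every shZNF148 value was above every shCtr value, the mean was 1.84 times that of shCtr, and the log2 fold change was 0.83 (standard error 0.10). It was 179 from the highest among the 11777 tested rows. In shCtr the PPP2R1B level was close to that of PPP2R5A, whereas in shZNF148 its mean of 22.0 ± 2.12 FPKM (SD, n = 3) was near that of PPP2R2A.

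PPP2R1A, the alpha scaffold found in most PP2A holoenzymes, was 129, 138 and 129 FPKM in shCtr and 155, 166 and 128 FPKM in shZNF148. Replicates 1 and 2 of shZNF148 were above all shCtr values of PPP2R1A and replicate 3 was below them, giving a log2 fold change of 0.17 (95% interval -0.07 to 0.42). The share of PPP2R1B in the scaffold transcripts was 7.85%, 8.78% and 8.21% in shCtr and 12.8%, 12.4% and 13.3% in shZNF148, so the alpha scaffold remained the main one. The summed scaffold transcripts were 0.638 ± 0.0247 of the B56 transcripts in shCtr and 0.827 ± 0.122 in shZNF148 (SD, n = 3 each), with no overlap. The scaffold sum itself did overlap, at 140, 151 and 140 FPKM in shCtr and 178, 190 and 147 FPKM in shZNF148. The ratio also reflects the lower B56 sum in shZNF148.

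The catalytic genes and the B55 gene PPP2R2A showed no separation of the groups. The higher row of PPP2CA (C alpha) was 103, 100 and 114 FPKM in shCtr and 105, 85.4 and 126 FPKM in shZNF148. Its other row was 55.6, 53.9 and 53.3 FPKM in shCtr and 56.3, 50.9 and 56.9 FPKM in shZNF148. The log2 fold changes of the PPP2CA rows were -0.02 (95% interval -0.36 to 0.32) and 0.01 (95% interval -0.15 to 0.17), and the table does not say which transcripts each row holds.

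PPP2CB (C beta) was 33.2, 34.4 and 33.0 FPKM in shCtr and 36.7, 25.4 and 30.7 FPKM in shZNF148, a log2 fold change of -0.13 (95% interval -0.43 to 0.18). PPP2R2A, the B55 alpha subunit that opposes cyclin-dependent kinase at mitotic exit, was 19.5, 18.6 and 18.8 FPKM in shCtr and 16.0, 16.2 and 20.4 FPKM in shZNF148, a log2 fold change of -0.11 (95% interval -0.36 to 0.13). In both genes the shZNF148 samples spread widely around the tight shCtr values, and shifts of the size seen in PPP2R5A or PPP2R1B lay outside the intervals.

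A row counted as called when limma, fitted to all 11777 rows, gave it both an adjusted p below 0.05 and a fold beyond 1.5. By this rule 1 of the 11 subunit rows, PPP2R5A, was called lower, as were 3.66% of all tested rows, and 1, PPP2R1B, was called higher, as were 1.83%. Groups did not overlap in the lower direction for 2 of the 11 rows (21.0% of all tested rows) and in the higher direction for 1 (20.0%). Since this contrast chose the genes, nothing is read from these counts. The median log2 fold change was -0.02 over the 11 rows and 0.01 over all tested rows, and the 9 rows other than PPP2R5A and PPP2R1B lay between -0.27 and 0.17.

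Single libraries mattered for these calls. Without shCtr replicate 1 or shCtr replicate 3, the log2 fold change of PPP2R5A was -1.29 or -1.22 and that of PPP2R1B was 0.78 or 0.81, and neither gene was called. The sizes were close to those from all 6 samples. This loss was not particular to these genes: called rows went from 647 to 29 or 22, and ZNF148 also lost its call. shZNF148 replicate 2 was the lowest or the highest of the 6 samples in 54.0% of all tested rows and in 7 of the 11 subunit rows, and without it PPP2R5A had a log2 fold change of -1.13 and PPP2R1B of 0.78. The part of that library in the other values was not tested.

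**Figure D2:**
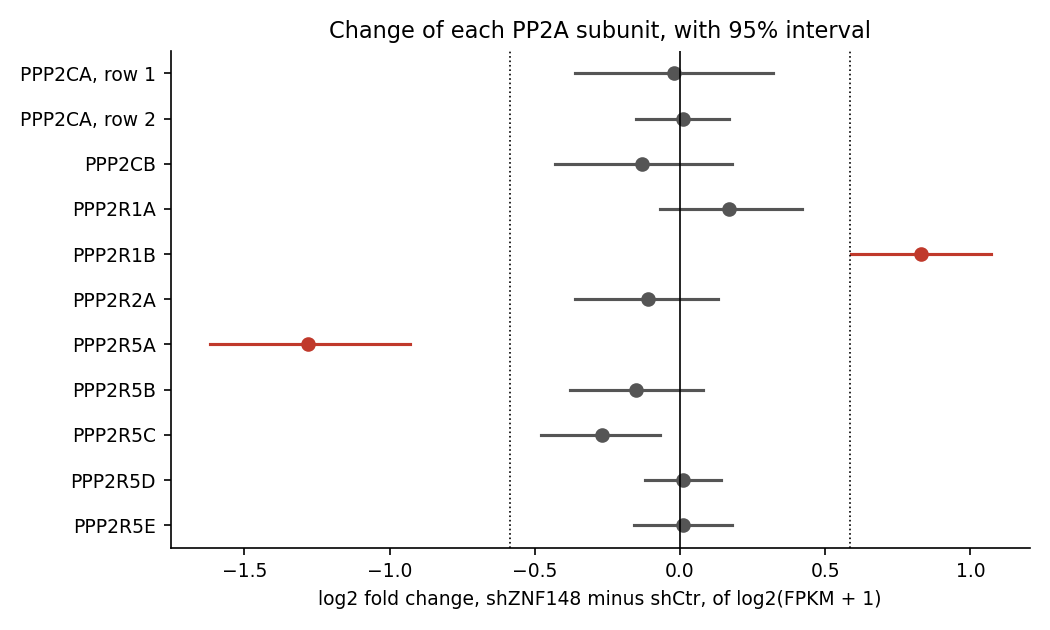
Log2 fold change of each subunit row on log2(FPKM + 1), shZNF148 minus shCtr, with its 95% interval from limma (n = 3 each). Dotted lines mark a change of 1.5-fold; PPP2R5A at -1.28 and PPP2R1B at 0.83 lie outside them (red, called) and the other 9 rows lie between -0.27 and 0.17 (grey).

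Genes that work with PP2A were taken from 5 lists with 65 symbols, of which all were found and 61 passed the filter on low values. In these lists limma called 1 gene lower and 0 higher, against the 3.66% and 1.83% of all rows. At an adjusted p under 0.05 without the limit on size, 5 were lower (8.13% of all rows) and 4 higher (5.46%), and at an unadjusted p under 0.05 the counts were 10 (17.8% of all rows) and 12 (16.0%). Groups did not overlap for 12 of the 61 genes in the lower direction (21.0% of all rows) and for 15 in the higher (20.0%). These shares are near the background. The median log2 fold change over the 61 genes was 0.00, against 0.01 over all rows.

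The called gene was ANKRD28, a regulatory subunit of the related phosphatase PP6, which fell by 0.62 on the log2 scale (standard error 0.10, adjusted p = 0.0178 from limma). It was 22.5, 21.2 and 21.2 FPKM in shCtr and 13.7, 12.2 and 15.6 FPKM in shZNF148. Leaving out any 1 shCtr sample, or shZNF148 replicate 1 or 2, left 0 genes of these lists called. ANKRD52, a paralog of ANKRD28 in the same complex, was 15.9, 17.5 and 19.8 FPKM in shCtr and 26.6, 31.9 and 22.5 FPKM in shZNF148. Its log2 fold change of 0.57 (adjusted p = 0.0432 from limma) was just under 1.5-fold on this scale, so ANKRD28 and ANKRD52 moved in opposite directions. The groups overlapped for the other PP6 genes of the list. These were PPP6C (log2 fold change 0.00), PPP6R1 (-0.02), PPP6R2 (-0.12), PPP6R3 (-0.12) and ANKRD44 (-0.18).

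Of the 17 related phosphatase genes, 2 were lower (8.13% of all rows) and 3 higher (5.46%) at an adjusted p under 0.05 in limma. All of these but ANKRD28 changed by less than 1.5-fold on this scale. The list was chosen with earlier results of these data known, and nothing is read from these counts. PPP4R3A and PPP4R1, and CIP2A, STRIP2, AXIN1 and KIF4A in the other lists, are named after their values were seen. PPP1CC, the gamma catalytic subunit of PP1, fell by 0.30 (adjusted p = 0.0285 from limma). PPP4R3A and PPP4R1, regulatory subunits of PP4, rose by 0.41 and 0.31 (adjusted p = 0.0178 and 0.0280 from limma). The catalytic genes PPP4C (-0.12, adjusted p = 0.222 from limma) and PPP5C (-0.07, adjusted p = 0.588) did not pass, nor did PPP1CA (0.21, adjusted p = 0.0538). The median of this list was -0.07.

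None of the 6 tested regulatory B subunits outside the 10 genes passed in limma at an adjusted p under 0.05 (8.13% lower and 5.46% higher over all rows). At an unadjusted p under 0.05, 0 were lower (17.8% of all rows) and 1 higher (16.0%). The striatin gene STRN4 went from 55 ± 2.44 to 67.8 ± 7.24 FPKM (SD, n = 3 each), and its log2 fold change of 0.29 did not pass (adjusted p = 0.0704 from limma). PPP2R2D, the B55 delta gene, ranged from 12.2 to 14.5 FPKM in shCtr and from 12.3 to 13.3 FPKM in shZNF148. PPP2R2C, the B55 gamma gene, was 0.634, 0.662 and 0.767 FPKM in shCtr and 0.23, 0.0516 and 0.429 FPKM in shZNF148. The PPP2R2C groups did not overlap and its shZNF148 mean was 34.4% of the shCtr mean, a ratio close to that of PPP2R5A, but at these levels below 1 FPKM it was not tested. PPP2R2B and PPP2R3B were listed at 0 throughout.

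The 13 regulators of PP2A also gave 0 genes at an adjusted p under 0.05 in limma (8.13% lower and 5.46% higher over all rows). At an unadjusted p under 0.05, 0 were lower (17.8% of all rows) and 2 higher (16.0%). Of the 13 regulators, PPME1, which removes the methyl group from the catalytic subunit, was the most abundant at 184, 179 and 189 FPKM in shCtr and 201, 209 and 191 FPKM in shZNF148, with a log2 fold change of 0.12 (adjusted p = 0.208 from limma). SET, an inhibitor of PP2A, had a log2 fold change of 0.09 (95% interval -0.11 to 0.30), PTPA, an activator, of 0.01 (95% interval -0.15 to 0.17) and ENSA, an inhibitor of B55 holoenzymes, of 0.15 (95% interval -0.07 to 0.38). CIP2A, an inhibitor that acts on B56 holoenzymes, was 17.8, 18.1 and 20.4 FPKM in shCtr and 25.0, 20.5 and 24.7 FPKM in shZNF148. The CIP2A groups did not overlap, but the log2 fold change of 0.30 did not pass (adjusted p = 0.0870 from limma).

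**Figure D3:**
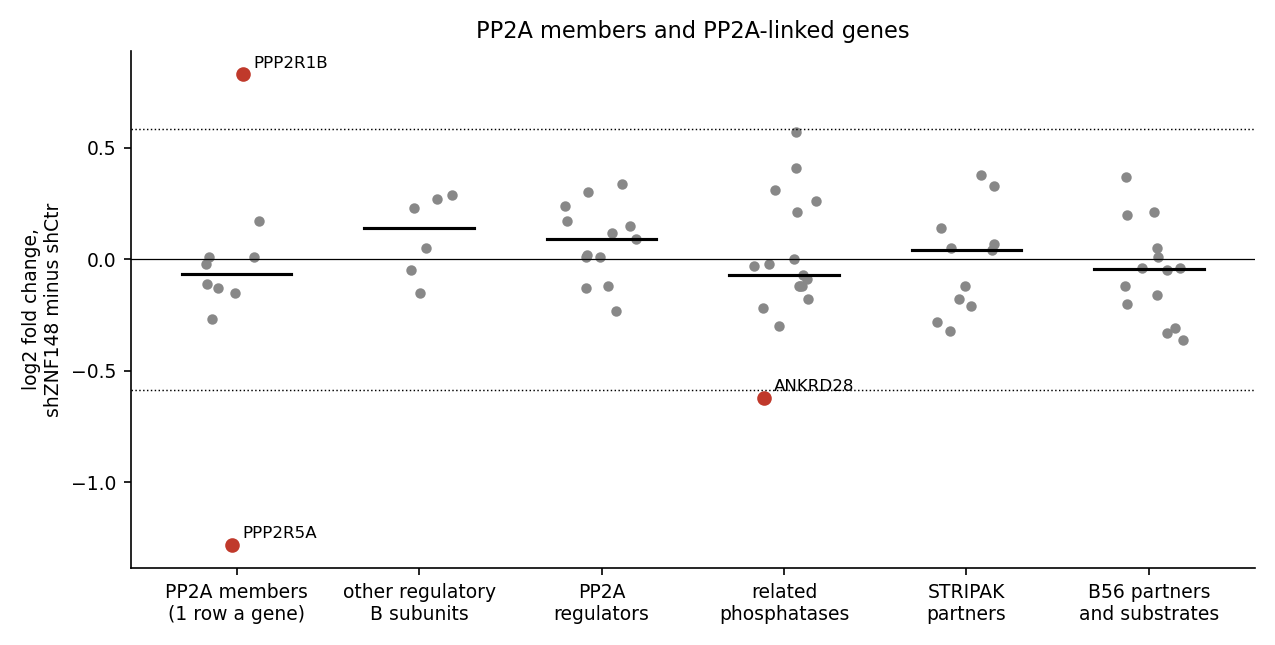
Log2 fold change, shZNF148 minus shCtr, of the 10 subunit genes and of 61 tested genes in 5 lists of PP2A-linked genes, 1 point a gene, with the median as a bar and dotted lines at 1.5-fold. Called genes are red: PPP2R1B at 0.83, PPP2R5A at -1.28 and ANKRD28 at -0.62.

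STRIPAK complexes join PP2A to striatins and kinases, and 1 of their 11 tested partner genes passed the adjusted p. This was STRIP2, which fell by 0.28 (log2 scale, limma adjusted p = 0.0411), from 15.9, 14.7 and 15.1 FPKM in shCtr to 12.6, 12.2 and 12.4 FPKM in shZNF148. Of all rows, 8.13% passed the adjusted p in the lower direction and 5.46% in the higher. STK25, a kinase of these complexes and the most abundant of the list, was 67, 57.4 and 71.3 FPKM in shCtr and 54.6, 46.2 and 55.6 FPKM in shZNF148, a log2 fold change of -0.32 that did not pass (adjusted p = 0.0946 from limma).

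Among the 14 partners and substrates of B56 holoenzymes, 2 passed the adjusted p in the lower and 1 in the higher direction, each at less than 1.5-fold. Of all rows, 8.13% passed in the lower and 5.46% in the higher direction, and nothing about B56 substrates is read from these counts. AXIN1, a scaffold of the beta-catenin destruction complex, fell by 0.33 (adjusted p = 0.0293 from limma), from 22.8 ± 0.888 to 17.9 ± 0.792 FPKM (SD, n = 3 each). MYC, whose protein is destabilised by B56 alpha holoenzymes, fell by 0.31 (adjusted p = 0.0431 from limma) and was 92.8, 79.4 and 85.3 FPKM in shCtr and 69.8, 65.7 and 71.3 FPKM in shZNF148. The mitotic kinesin KIF4A rose by 0.37 (adjusted p = 0.0159 from limma), from 25.8, 25.9 and 26.2 FPKM to 33.9, 33.8 and 33.9 FPKM. PXN, which encodes the focal adhesion protein paxillin and was the most abundant of the list, had a log2 fold change of -0.16 (adjusted p = 0.0983 from limma). CTNNB1, which encodes beta-catenin, had a log2 fold change of -0.04 (95% interval -0.18 to 0.11).

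The 5 tested rows whose profile over the 6 samples lay nearest to that of PPP2R5A were PTPRB, IGFBP1, FAM83A, MT2A and PTPLAD1. Likeness was the root mean square difference of centred log2(FPKM + 1) values, which ran from 0.09 for PTPRB to 0.12 for PTPLAD1. PTPRB, a receptor tyrosine phosphatase, was 4.58, 4.38 and 4.47 FPKM in shCtr and 1.59, 1.00 and 1.59 FPKM in shZNF148. The log2 fold changes of these rows ran from -1.25 for FAM83A to -1.09 for MT2A. Since the rows were picked for likeness to PPP2R5A, a similar fall and a low replicate 2 follow from the choice.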

How the data were processed

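RNA-seq of 6 samples was analysed, grouped by the sample titles. Values were those the authors deposited, a normalised FPKM matrix with 1 column for each sample, and 0 per-sample columns were left unused. The submitters' processing notes name bcl2fastq 2.17.1.14, TopHat2 2.0.14, Cufflinks 2.2.1, Cuffnorm 2.2.1 and the builds hg18 and hg19, whereas the methods of the paper name Salmon, GRCh38 and DESeq2; which made these values is not given in the sources used here. Read counts cannot be recovered without transcript lengths, so limma was used in place of a count test. Rows averaging 1 FPKM or more were fitted as log2(FPKM + 1) in limma 3.58.1 (R 4.3.3), modelling condition alone, with a trend of variance on mean level and p-values adjusted by Benjamini-Hochberg over 11777 rows. Fold changes on this scale understate those of low genes. A symbol with several rows was represented by the row with the highest mean. The subunit genes and lists were chosen with earlier results of these data known, and CCCTCCCC was picked after the values were seen. Named by rule were all subunits, ZNF148, list genes called or changed over 1.5-fold without overlap, up to 4 of the most abundant others of each list, and the 5 rows nearest to PPP2R5A; other named genes were chosen after their values were seen. Gene positions are from GENCODE release 44 (GRCh38), since the table has none. Summaries and plots used pandas 2.3.3, numpy 2.4.6 and matplotlib 3.10.9 under Python 3.11.15. Alternatives were other pseudocounts, filters, centring and quantile scaling, no variance trend, a replicate block, summed rows of a symbol and leaving out each sample. The fit was tested on simulated data. One result is not reported here, and list genes that are not named enter as counts.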

Additional observations from a re-analysis of the deposited data

How the results depend on the processing

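PPP2R5A kept its direction under all 15 alternatives (log2 fold change -1.44 to -0.86, both set by the pseudocount) and was called in 13. Leaving out single samples gave -1.40 to -1.13, and for ZNF148 -1.74 to -1.45, where the call was lost without shCtr replicate 1 (-1.69) or shCtr replicate 3 (-1.61). The pseudocount moved ZNF148 from -1.63 to -2.57 (0.1 FPKM) or -0.69 (5 FPKM). The number of called rows, 647, was 280 with a pseudocount of 5 FPKM and 22 to 566 with single samples left out (22 without shCtr replicate 3, 29 without shCtr replicate 1, 201 without shCtr replicate 2, 270 without shZNF148 replicate 1); the cause was not tested. The list genes called, 1 at first, were 2 with a pseudocount of 0.1 FPKM, 0 with 5 FPKM and 0 to 2 with single samples left out. The PPP2R5A share of B56 FPKM, which differed by -3.28 percentage points (shZNF148 minus shCtr), ran from -3.48 to -3.06. A replicate block in the fit gave 315 called rows, with PPP2R5A (-1.28) and PPP2R1B (0.83) still called. Deviations of same-numbered samples correlated at 0.00104, -0.0881 and 0.0304 for replicates 1, 2 and 3, so the numbers were not taken as pairs.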

Other observations

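Among the markers of mesenchymal-like basal breast cancer cells, EGFR, the epidermal growth factor receptor, fell by 0.61 on a log2 basis (adjusted p = 0.0200 from limma) and was 63.2, 72.4 and 64.1 FPKM in shCtr and 47.8, 38 and 44.6 FPKM in shZNF148. CD44, an adhesion receptor for hyaluronan, fell by 0.46 (adjusted p = 0.0185 from limma), and the receptor tyrosine kinase gene AXL fell by 0.29 (adjusted p = 0.0364 from limma), both by less than 1.5-fold. CAV1, which encodes caveolin-1, had a log2 fold change of -0.12 (adjusted p = 0.400 from limma), with overlapping groups. VIM, which encodes vimentin, had a log2 fold change of -0.22 (adjusted p = 0.0563 from limma).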
